A study of Homo sapiens with 2 samples.

Results

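The regions described here are the Rb peaks of chromosome 19 that lie outside its clusters of zinc finger genes, in VCaP and LNCaP cells. They are the peaks on chromosome 19 (genome build hg19) whose summit falls outside 6 intervals, given in Mb as 11.7 to 12.7, 19.8 to 24.4, 36.6 to 38.5, 44.3 to 45.0, 52.4 to 54.0 and 56.5 to 59.1, and outside 24.4 to 28.0 around the centromere. This left 490 of 9423 peaks in VCaP and 901 of 21994 in LNCaP, 1391 of 31417 in all. Only position chose them, and none of the measured values did. The intervals were taken as given, since no gene annotation of hg19 was used here, and for the same reason no peak is assigned to a gene.

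Rb, the retinoblastoma protein, has no DNA-binding domain that reads a sequence. It reaches chromatin mainly through E2F transcription factors at promoters of genes for DNA replication and the cell cycle, where it holds back transcription until cyclin-dependent kinases phosphorylate it. Chromosome 19 is known as the human chromosome with the densest genes, and it carries large tandem clusters of zinc finger genes, many of which encode KRAB repressors. Its long arm also carries the kallikrein genes, among them KLK3, which encodes prostate-specific antigen and is a classic target of the androgen receptor.

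VCaP and LNCaP are human cell lines from metastases of prostate cancer, and both express the androgen receptor, which dihydrotestosterone (DHT) activates. Both groups were treated alike: 3 days in medium with 5% charcoal-stripped serum, then 10 nM DHT for 4 h, at passage 10 to 15. The ChIP used a mouse monoclonal antibody against Rb, and each line is represented by 1 library, so that the lists of these libraries are compared, with no test between the lines. Intervals in brackets are exact 95% binomial intervals, which cover counting error only. They treat peaks as independent, which neighbouring peaks may not be, so intervals that stand apart are a description and no test. Untreated cells and input chromatin were not analysed here. The LNCaP library was the shallower, with 3671482 tags after filtering against 8691938 in VCaP, or 0.422 times as many.

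Outside its zinc finger clusters, chromosome 19 was dense in Rb peaks in both lines. The 43.1 Mb that the rule keeps held 11.4 peaks per Mb in VCaP and 20.9 in LNCaP. All other peaks of chromosomes 1 to 22 and X came to 3.24 per Mb in VCaP and 7.67 in LNCaP, taking the rest of the effective genome size in the file headers as their length, so that the density was 3.51 and 2.73 times as high here. The zinc finger intervals, 12.4 Mb in all, had about the same densities, with 10.7 peaks per Mb in VCaP and 20.8 in LNCaP. The regions made up 5.22% of the VCaP list (4.78 to 5.69) and 4.10% of the LNCaP list (3.85 to 4.37). LNCaP therefore had 1.84 times as many of them as VCaP (1.65 to 2.06), against 2.36 times for all other peaks (2.31 to 2.42).

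Peaks per gene can be given for the whole chromosome only, zinc finger clusters included. RefSeq lists 1451 protein-coding genes on chromosome 19 in the assembly GRCh38.p14, used here only for counting genes, and 262 of them have symbols that begin with ZNF, ZFP or ZSCAN, the highest number of any chromosome. The chromosome had 43.4 VCaP peaks per 100 protein-coding genes and ranked 18 of 23 chromosomes. The other 22 chromosomes had a median of 50.7, with a range from 14.7 to 78.7. In LNCaP it had 79.9 per 100 genes and ranked 22, and the median of the others was 113.

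Enrichment over the local background was of a similar size in both lines. Fold enrichment is the authors' value for each peak: the number of extended tags over the summit (the pileup), plus 1, over the local background, plus 1. Its median was 5.75 in VCaP (quartiles 5.09 and 6.92) and 5.72 in LNCaP (4.84 and 6.90). In VCaP the other peaks had a lower median, 5.48, and in LNCaP a higher one, 6.02. A fold enrichment of at least 10 was reached by 25 VCaP regions, or 5.10% (3.33 to 7.44), where 3.32% of the whole VCaP list reached it. In LNCaP 43 did, or 4.77% (3.48 to 6.38), where 8.02% of the whole list did. Strongly enriched peaks were thus a larger share here than in the whole list for VCaP and a smaller share for LNCaP.

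The pileup set the LNCaP regions apart from the rest of their list more than the fold did. Their median pileup was 16 tags (quartiles 12 and 22) against 13 for other LNCaP peaks, and 316 of them, or 35.1% (32.0 to 38.3), had at least 20 tags, where 24.3% of the whole list did. In VCaP the median was 13 tags inside and outside, and 82 regions, or 16.7% (13.5 to 20.3), had at least 20 tags, where 16.9% of the whole list did. The background under the peaks differed in the same way. The authors' peak caller took it from a window of 10 kb around each peak in nearly all cases, and the number of tags in that window can be computed back from pileup and fold. The window held a median of 83 tags in LNCaP against 50 around other LNCaP peaks. In VCaP the medians were 65 and 68. In LNCaP 52.5% of the regions (49.2 to 55.8) lay in the highest quartile of window tags of the whole list, and in VCaP 18.98% did (15.6 to 22.7). Tags of a peak count towards its own window.

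The ratio between the lists was uneven along the chromosome. The kept sequence falls into 6 segments, named here in order from the end of the short arm: p1 from 0 to 11.7 Mb, p2 from 12.7 to 19.8 Mb, q1 from 28.0 to 36.6 Mb, q2 from 38.5 to 44.3 Mb, q3 from 45.0 to 52.4 Mb and q4 from 54.0 to 56.5 Mb. Segment p1 had 293 LNCaP and 98 VCaP peaks, a ratio of 2.99 (2.37 to 3.798). Segment q3 had 172 and 132, a ratio of 1.30 (1.03 to 1.65), and segment q2 had 94 and 73, a ratio of 1.29 (0.938 to 1.77). The ratios of segments p2, q1 and q4 lay between, at 1.86, 1.88 and 1.66. Over the whole short arm LNCaP had 2.42 times as many peaks as VCaP (2.05 to 2.88) and over the long arm 1.45 times (1.25 to 1.69). These intervals do not overlap, but peaks of 1 library are not replicates.

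**Figure D1:**
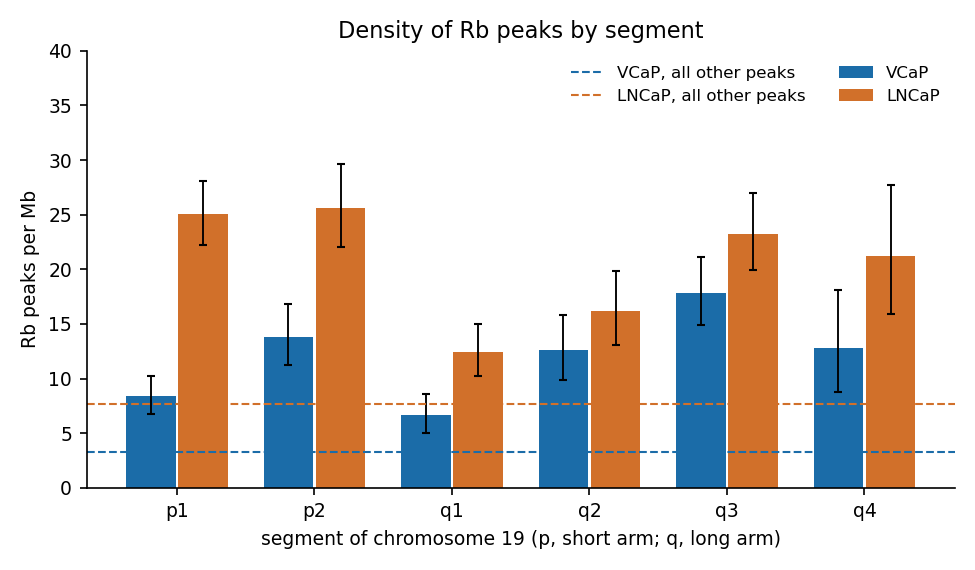
Rb peaks per Mb in the 6 segments of chromosome 19 outside the zinc finger clusters (p, short arm; q, long arm), as bars for the VCaP and LNCaP lists. Error bars are exact 95% Poisson intervals of the counts, and dashed lines give the density of all other peaks. In p1 the LNCaP bar stands at 25.04 and the VCaP bar at 8.38, while in q3 they stand at 23.2 and 17.8.

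VCaP density was lowest in q1, with 6.63 peaks per Mb, followed by p1 with 8.38, and highest in q3, with 17.8. LNCaP density was also lowest in q1, with 12.4, but p1 and p2, with 25.04 and 25.6, were its densest segments. At a pileup of at least 20 tags, a limit chosen after seeing the data, the segments differed more. Here p1 had 130 LNCaP and 9 VCaP peaks, a ratio of 14.4 (7.38 to 32.3), and q3 had 32 and 30, a ratio of 1.07 (0.628 to 1.82). Over the whole lists the ratio was 3.35 at this limit and 2.34 without it. The limit is not scaled to depth, so 20 tags are a larger share of the LNCaP library than of the VCaP library. The densest Mb of the VCaP list, from 49 to 50 Mb in q3, held 32 VCaP and 31 LNCaP peaks. The densest of the LNCaP list, from 1 to 2 Mb in p1, held 44 LNCaP and 16 VCaP peaks. In p1 from 5 to 6 Mb there were 20 LNCaP peaks and 2 VCaP peaks. Of 40 full bins of 1 Mb, LNCaP had more peaks in 36 and VCaP in 3, all 3 on the long arm between 42.5 and 50 Mb.

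Most VCaP regions were also found in LNCaP, and a larger share of LNCaP regions than elsewhere was also found in VCaP. Of the 490 VCaP regions 403, or 82.2% (78.6 to 85.5), overlapped an LNCaP peak by at least 1 bp, where 71.2% of the whole VCaP list did. Of the 901 LNCaP regions 403, or 44.7% (41.4 to 48.0), overlapped a VCaP peak, where 30.2% of the whole LNCaP list did. Among all other peaks the shares were 70.6% (69.6 to 71.5) and 29.6% (29.0 to 30.2). The difference on the LNCaP side was present under each of the 6 definitions of overlap and limits on the peaks that were also applied to the other peaks, with shares from 30.7% to 64.7% here against 17.8% to 50.5% elsewhere. The VCaP side depended on them. With LNCaP peaks of highest fold enrichment in a number equal to the VCaP list, 43.5% of VCaP regions were overlapped against 52.5% of other VCaP peaks, the opposite order. With −log10 q of at least 5 in both lists the shares were 77.7% and 75.8%, and with a fold enrichment of at least 5 they were 72.7% and 71.3%.

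**Figure D2:**
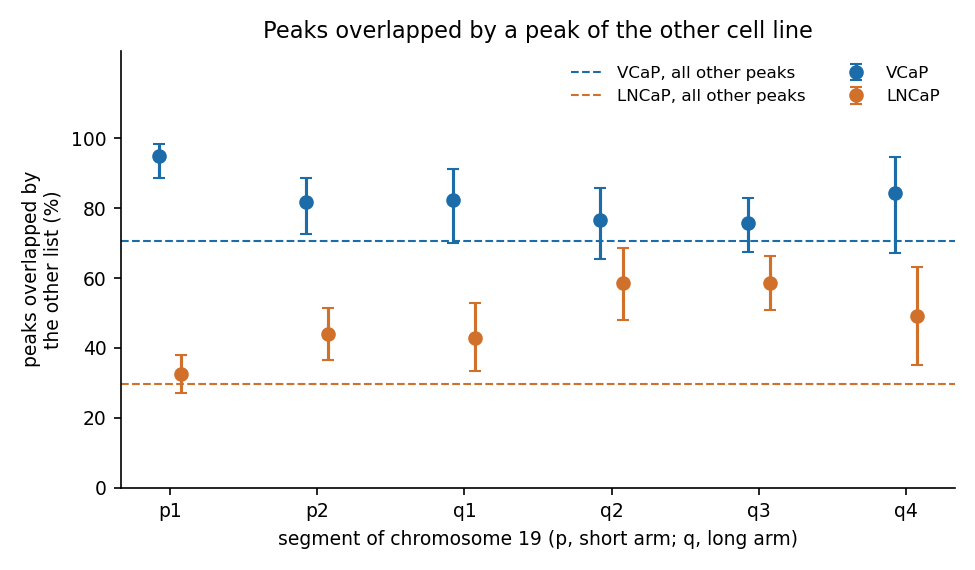
Share of Rb peaks that met a peak of the other list over at least 1 bp, in % of the peaks of each list, for the 6 segments. Points are the VCaP and LNCaP lists, error bars are exact 95% binomial intervals, and dashed lines give all other peaks. The VCaP share is highest in p1, at 94.9%, where the LNCaP share is lowest, at 32.4%.

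The shares ran in opposite directions along the chromosome. Nearly the same number of peaks was shared from either side, so the ratio between the shares of a segment restates its ratio of peak counts. In p1 93 of 98 VCaP peaks, 94.9% (88.5 to 98.3), had an LNCaP counterpart, and 95 of 293 LNCaP peaks, 32.4% (27.1 to 38.1), had a VCaP counterpart. In q3 the corresponding values were 75.8% (67.5 to 82.8) and 58.7% (51.0 to 66.2). Segment q2 resembled q3, with 76.7% and 58.5%. The LNCaP share of p1 was thus close to the 29.6% of other LNCaP peaks, while those of q2 and q3 were well above it.

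In LNCaP sharing rose from each quintile of fold enrichment to the next, and within each the regions were shared more often than other LNCaP peaks. In the lowest quintile of the LNCaP list by fold, up to 4.78, 25.7% of the regions (19.99 to 32.1) and 9.93% of other peaks (9.04 to 10.9) were shared. In the highest quintile, from 8.09, the shares were 75.8% (67.2 to 83.2) and 65.4% (64.0 to 66.9). In all 5 quintiles the intervals of the regions and of the other LNCaP peaks did not overlap. In VCaP the regions had the higher share in all 5 quintiles as well, but the intervals stood apart only in the second, with 82.6% (72.9 to 89.9) against 64.8% (62.5 to 67.0). The VCaP shares did not rise at every step: from the lowest quintile they were 68.3%, 82.6%, 76.9%, 80.2% and 94.1%, against 55.7%, 64.8%, 68.9%, 76.1% and 88.0% for other VCaP peaks.

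**Figure D3:**
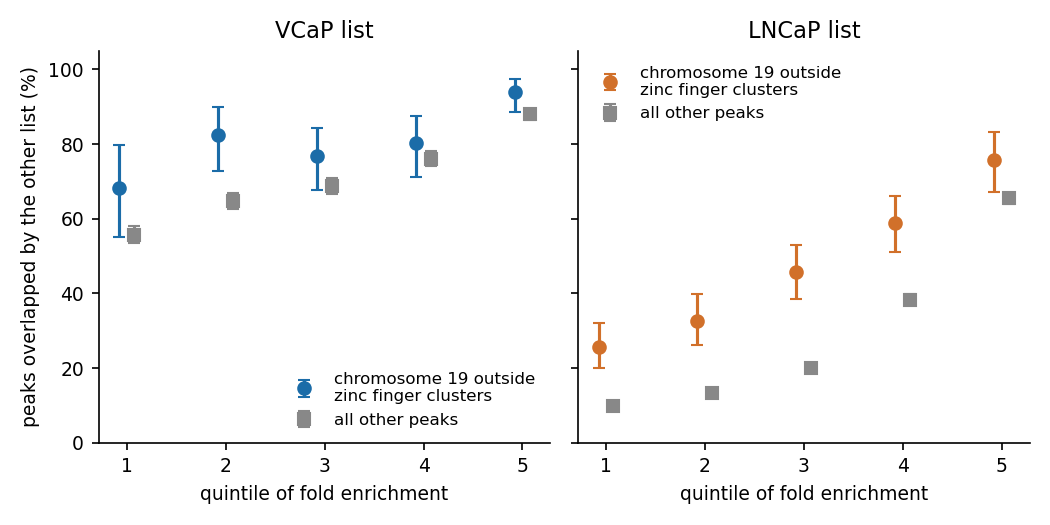
Share of peaks with an overlapping peak in the other list, in %, by quintile of fold enrichment within the VCaP list (left) and the LNCaP list (right), with 1 the lowest. Coloured points are the regions of chromosome 19 outside zinc finger clusters, grey squares all other peaks, and bars exact 95% binomial intervals. In LNCaP the coloured points lie above the grey squares in every quintile, from 25.7% against 9.93% up to 75.8% against 65.4%.

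The tags in the window went along with sharing too. In the highest quartile of window tags of the LNCaP list, 52.0% of the regions (47.4 to 56.6) and 51.4% of other peaks (50.005 to 52.8) were shared, nearly the same. In the third quartile they were 43.2% (36.7 to 49.9) and 40.5% (39.2 to 41.9), and in the second 34.9% (27.3 to 43.1) and 24.98% (23.8 to 26.2). In the lowest they were 12% (4.53 to 24.3) and 4.08% (3.57 to 4.64), from 50 regions. Only in the second quartile did the intervals stand apart. The regions were unevenly spread over these quartiles, as given above, and the part of the window tags in the overall difference was not tested. In VCaP the shares were higher here in all 4 quartiles, for example 92.2% (86.2 to 96.2) against 81.1% (79.3 to 82.7) in the third.

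At sites found in both lines, the fold enrichment was nearly balanced between them. The 403 VCaP regions that overlapped were each paired with their strongest LNCaP peak, 398 different peaks in all. These pairs had a median fold of 5.88 in VCaP and 6.45 in LNCaP, whereas the 6285 pairs elsewhere had 5.70 and 7.82. LNCaP had the higher fold in 242 of 403 pairs, or 60.05% (55.1 to 64.9), where 80.8% of all pairs did and 82.1% (81.1 to 83.1) of those elsewhere. On the log2 scale, VCaP over LNCaP had a median of -0.10 (quartiles -0.35 and 0.19) against -0.42 (-0.71 and -0.11) elsewhere. A fold at least 1.5 times as high in LNCaP was seen in 43 pairs, 10.7% (7.83 to 14.1), where 33.4% of all pairs had it. A fold at least 1.5 times as high in VCaP was seen in 22 pairs, 5.46% (3.45 to 8.15), where 1.57% of all pairs had it. With −log10 q of at least 5 in both lists, 52.9% of 223 pairs were higher in LNCaP.

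**Figure D4:**
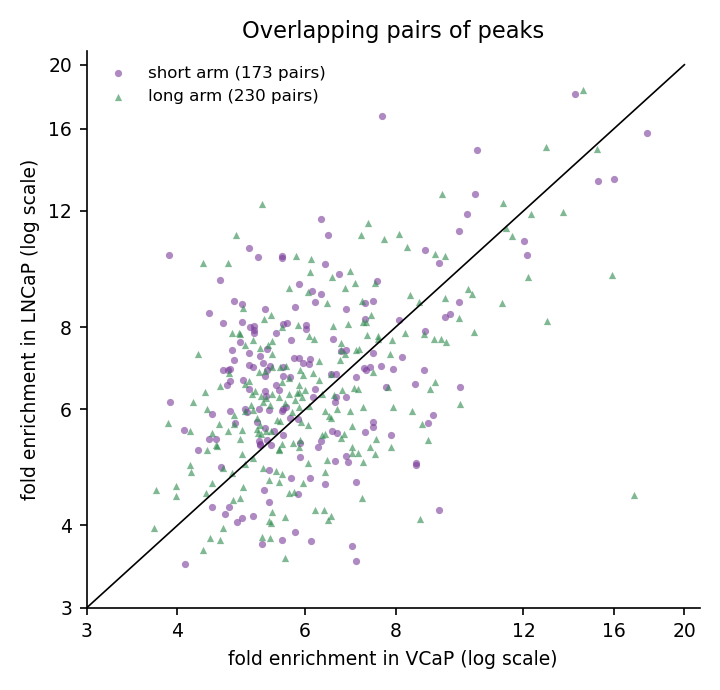
Fold enrichment in VCaP (horizontal) and LNCaP (vertical), both on log scales, at the 403 overlapping pairs of peaks, with circles for the short arm (173 pairs) and triangles for the long arm (230 pairs). The line marks equal values, and 242 pairs lie above it. The single triangle at the lower right is the site at 49164212-49164617, with 17.1 in VCaP and 4.46 in LNCaP.

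Against pairs elsewhere, the window tags at these pairs differed more than the pileups did. Scaled to 1000000 tags of each library, the pileup ratio of VCaP over LNCaP had a median log2 of -1.70 at these pairs and -1.76 elsewhere. The ratio of window tags was -1.66 at these pairs and -1.22 elsewhere, so that LNCaP had 3.16 times the scaled window tags of VCaP here and 2.33 times elsewhere. With the tags over the summit taken off the window, an alternative added after seeing the data, the medians were -1.64 and -0.998. When all pairs were divided into quartiles by their LNCaP window tags, also after seeing the data, the share with the higher fold in LNCaP was between 57.1% and 61.5% in each quartile for these pairs and between 76.1% and 86.3% for the others.

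Along the chromosome, window tags and pileup shifted together and the fold stayed near balance. These measures are not independent, since fold compares the pileup with the window background. The peaks were also called on that comparison, so a joint shift with a steady fold is partly built in. In p1 the median log2 VCaP/LNCaP ratio was -2.48 for scaled window tags, -2.24 for scaled pileup and -0.16 for fold (93 pairs). In p2 these were -1.86, -1.96 and -0.18 (80 pairs). In q3 they were -0.93, -1.13 and 0.0034 (100 pairs), and 49 of its pairs had the higher fold in LNCaP. In q1, q2 and q4 the window ratio was -1.56, -1.11 and -1.58, and the fold ratio -0.13, -0.12 and -0.13. Both libraries contributed to the low ratio of p1: the windows of its VCaP peaks held 5.12 tags per 1000000, against 7.82 for all other VCaP peaks, and those of its LNCaP peaks 25.9 against 13.6. The part of the local tag level in the peak counts of the segments was not tested.

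**Figure D5:**
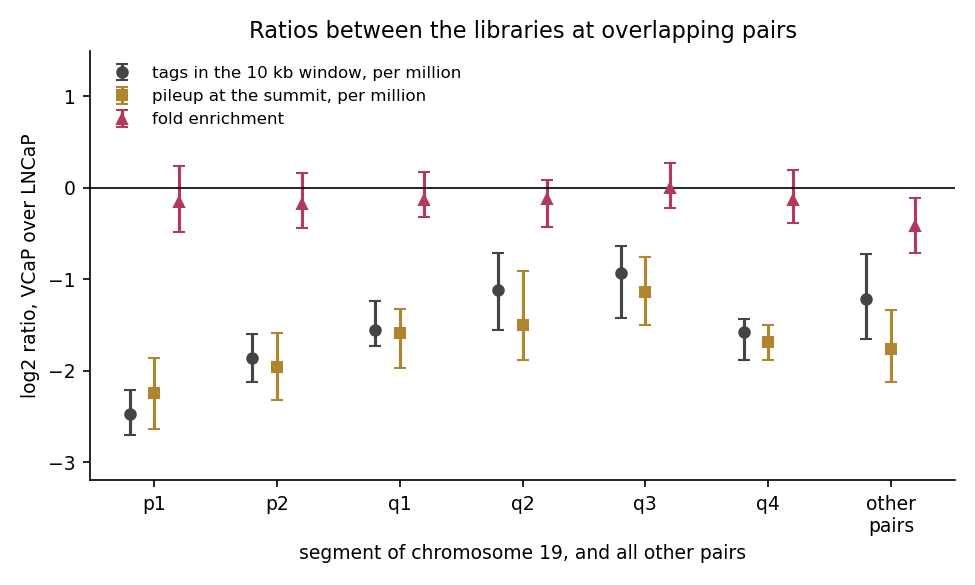
Median log2 ratio of VCaP over LNCaP at overlapping pairs, for tags in the 10 kb window, pileup at the summit (both per 1000000 tags of the library) and fold enrichment, in each segment and at all other pairs. Bars run from the lower to the upper quartile, and the line marks equal values. Window tags rise from -2.48 in p1 to -0.93 in q3 together with pileup, while in the 6 segments the fold stays between -0.18 and 0.0034. The measures are tied to each other, since fold compares the pileup with the window background.

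At the very top, the most enriched regions were mostly the same sites in both lines, and less so further down. All of the 10 regions with the highest fold in VCaP and all of the 10 highest in LNCaP had an overlapping peak in the other list, and 6 sites were in the top 10 of both. Of the 100 highest in each list, 95 in VCaP and 77 in LNCaP were shared, and 42 were in both. Strong peaks elsewhere were often shared too: in the highest quintile of fold, 88.0% of other VCaP peaks and 65.4% of other LNCaP peaks were. The Spearman rank correlation of fold was 0.371 over the 403 pairs and 0.360 at pairs elsewhere. The site at 16221934-16222675 (VCaP interval, segment p2) led the VCaP regions with a fold of 17.8 from a pileup of 88 tags, and in LNCaP it had a fold of 15.8 from 96 tags, with summits 8 bp apart. The site at 56014926-56015380 in q4 led the LNCaP regions, with a fold of 18.3 from 76 tags there and 14.5 from 48 tags in VCaP. Since LNCaP had 0.422 times the tags, equal pileups stand for a higher share of its library.

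Next to these came 4 sites that also ranked in both top 10 lists. The site at 14016680-14017164 (p2) had a fold of 14.1 in VCaP and 18.04 in LNCaP. At 46282544-46282916 (q3) the values were almost equal, 15.1 and 14.9, from 38 tags in each library. At 10305086-10305679 (p1) the summits of both lists fell on the same base, with folds of 15.99 in VCaP and 13.4 in LNCaP from 56 and 86 tags. At 17185979-17186703 (p2) the folds were 15.2 and 13.3 and the summits were 5 bp apart. These pairs differ by at most 1.28 times in fold, in both directions, and the spread between cultures is not known.

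A further 4 sites completed the 10 shared regions with the best rank in both lists. The site at 36103428-36103986 (q1) had folds of 12.9 in VCaP and 15.01 in LNCaP, and the site at 51182590-51182959 (q3) had 13.6 and 11.97. In the same segment, 49924294-49924771 had 12.3 and 11.9, and 48707076-48707601 had 11.2 and 12.3. Segment q3 thus held 4 of these 10 sites, and 100 of all 403 pairs. Among the 100 peaks of highest fold in the whole lists, 9 of VCaP (9.00%, 4.20 to 16.4) and 3 of LNCaP (3.00%, 0.623 to 8.52) lay in the 6 segments. Among the highest 500 there were 44 in VCaP, or 8.80% (6.47 to 11.6), and 11 in LNCaP, or 2.20% (1.10 to 3.902). The regions made up 5.22% of the whole VCaP list and 4.10% of the whole LNCaP list. These shares lie inside the intervals of the highest 100 and outside those of the highest 500.

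Some leading sites had a much higher fold in 1 line. The site at 49164212-49164617 (q3) ranked second among VCaP regions, with a fold of 17.1 from 51 tags, and its LNCaP partner had a fold of 4.46 from 7 tags, rank 761 of 901, with the summits 41 bp apart. The VCaP value was 3.83 times the LNCaP value, the highest such ratio among the 233 pairs with at least 20 tags in 1 of the lists. After it came 15529786-15530175 (p2), with 9.19 in VCaP and 4.23 in LNCaP, and 50180155-50180539 (q3), with 8.63 and 4.08. The remaining pairs of the 5 highest ratios were both in p1, at 1269359-1269865 with 6.96 and 3.72 and at 7939132-7939565 with 8.52 and 4.97. In those of p1 the LNCaP pileup, 24 and 23 tags, was above the VCaP pileup of 21 and 15. Their LNCaP windows held 237 and 159 tags, against 96 and 39 in VCaP.

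In the opposite direction the highest ratio, 2.64, belonged to a side peak. The VCaP peak at 14117669-14117893 (p2) had a fold of 3.89, and the broader LNCaP peak that overlapped it had 10.3, with summits 262 bp apart. The same LNCaP peak also overlapped a stronger VCaP peak at 14117089-14117566, with a fold of 12.1 from 39 tags, so that at this site as a whole VCaP was not the lower line. The next ratio was 2.35. At 32715597-32715938 (q1) the folds were 5.23 and 12.3, from 10 tags in VCaP and 27 in LNCaP. At 33864858-33865174 (q1) they were 4.34 and 9.99, with summits 553 bp apart. That LNCaP peak also overlapped the VCaP peak at 33864209-33864701, which had a fold of 4.70 and a summit 27 bp from its own. At 40030586-40031037 (q2) the folds were 4.82 and 11.04. The fifth was 267098-267601 near the end of the short arm, with 7.66 from 17 tags in VCaP and 16.7 from 50 tags in LNCaP, the third highest LNCaP region. Also in the top 10 of LNCaP but not of VCaP were 18433699-18434238 (LNCaP interval, p2), with 14.9 in LNCaP and 10.4 in VCaP, and 40336213-40337169 (q2), with 12.7 and 9.26. The top 10 of VCaP further held 49891301-49891703 (q3), with 15.9 in VCaP and 9.59 in LNCaP, and 55850656-55851256 (q4), with 12.9 and 8.16.

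Regions found in 1 list only were weaker and shorter than shared ones. The same comparison was not made for peaks elsewhere, where sharing also fell with lower fold enrichment. The 87 unshared VCaP regions had a median fold of 5.42 and a median length of 273 bp, against 5.88 and 365 bp for shared ones. The 498 unshared LNCaP regions had 5.27 and 364.5 bp, against 6.44 and 523 bp. A fold of at least 10 was reached by 3.32% of the whole VCaP list and 8.02% of the whole LNCaP list, shared peaks included. None of the unshared VCaP regions reached it, and 4 of the unshared LNCaP ones, 0.803%, did. The 4 were at 9545973-9546390 in p1 (fold 11.2, 24 tags), 591491-591915 in p1 (11.1, 49 tags), 19285837-19286229 in p2 (10.7, 31 tags) and 3304797-3305229 in p1 (10.1, 25 tags). The fifth highest was at 35167960-35168901 in q1, with 9.99. Of the 498 unshared LNCaP regions 198 were in p1, which held 293 of the 901 LNCaP regions. The shared part of the LNCaP regions of p1, 32.4%, was close to the 30.2% of the whole LNCaP list. In VCaP 5 of the 98 regions of p1 were unshared, and 94.9% were shared, against 71.2% of the whole VCaP list.

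The highest unshared VCaP regions were lower, and they lay outside p1. They were found at 35581608-35581886 in q1 (fold 8.94, 17 tags), 42772869-42773451 in q2 (8.86, 28 tags), 13928811-13929140 in p2 (8.75, 17 tags), 45942858-45943186 in q3 (8, 25 tags) and 41903067-41903449 in q2 (7.57, 19 tags). Few unshared regions had their summit within 1 kb of a summit of the other list. There were 3 of 87 in VCaP and 19 of 498 in LNCaP. The median distance to the nearest such summit was 15.4 kb for VCaP and 32.1 kb for LNCaP. These distances are to lists of unlike density, with 20.9 LNCaP and 11.4 VCaP peaks per Mb here. Neither the counts nor the distances were computed for unshared peaks elsewhere. With a gap of up to 1 kb allowed between peaks, the shared part rose from 82.2% to 82.9% of VCaP regions and from 44.7% to 47.5% of LNCaP regions. Among other peaks it rose from 70.6% to 73.8% in VCaP and from 29.6% to 33.2% in LNCaP.

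Peaks were close neighbours in these segments. The median distance between successive summits was 40.4 kb in VCaP (quartiles 19.05 and 93.2) and 27.6 kb in LNCaP (11.98 and 53.8), against 109 and 54.3 kb for other peaks. A neighbour within 10 kb in the same list was found for 21.4% of VCaP regions (17.9 to 25.3), where 14.7% of other VCaP peaks had one (14.0 to 15.5), and for 36.6% of LNCaP regions (33.5 to 39.9), where 28.2% did (27.6 to 28.8). Within 5 kb the VCaP share, 8.16% (5.90 to 10.95), was nearly that of other peaks, 8.10%. Segment p1 had the widest spacing in VCaP, with a median of 69.5 kb, while its LNCaP median was 28.6 kb.

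LNCaP peaks were the longer ones, here as elsewhere. The median length was 340 bp in VCaP, with the longest at 913 bp, and 435 bp in LNCaP, with the longest at 1209 bp. Outside these segments the medians were 313 and 393 bp. A length of at least 1 kb was reached by 13 LNCaP regions, 1.44% (0.770 to 2.46), where 2.34% of the whole LNCaP list reached it, and by no VCaP region, where 0.224% of that list did. At overlapping pairs the summits lay 69 bp from each other in the median, with quartiles of 31 and 168 bp, and 80.4% (76.2 to 84.2) lay within 200 bp, against 82.7% (81.7 to 83.6) of pairs elsewhere.

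The zinc finger clusters of the same chromosome and chromosome 17, another chromosome rich in genes, show which of these values are shared. In the zinc finger intervals 83.5% of 133 VCaP peaks (76.0 to 89.3) and 42.2% of 258 LNCaP peaks (36.2 to 48.5) were overlapped, and both intervals contain the shares of the regions outside the clusters. The fold differed: there LNCaP was higher in 80.2% of 111 pairs (71.5 to 87.1), the LNCaP median fold was 6.51, and the window of LNCaP peaks held 14.2 tags per 1000000, against 22.6 outside the clusters. On chromosome 17, 73.9% of VCaP peaks (70.2 to 77.4) and 35.8% of LNCaP peaks (33.2 to 38.6) were overlapped, and LNCaP was higher in 72.9% of 439 pairs (68.5 to 77.0). Its LNCaP windows held 19.3 tags per 1000000. The interval of 55.1 to 64.9% for the regions outside the clusters overlaps neither of these 2 shares' intervals.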

How the data were processed

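Rb ChIP-seq peak lists of VCaP and LNCaP, with 1 library each, were used, grouped by the labelled line. The authors' peak calls were made for each library with MACS 2.1.0.20140616 and no control file, per the file headers, at a q-value limit of 0.05, with 75 bp tags and 1 tag kept per position. The submitters' processing notes name hg19, MACS2 and HOMER; the aligner is not given in the sources used here. The deposited pileup is a coverage signal not scaled to depth, the deposited fold enrichment a ratio to the library's own background, and the deposited significance −log10 p and −log10 q. The deposited peak lengths and positions are in bp, per the file headers. The summit files repeated the peak tables in all 9423 and 21994 rows.

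Window tags were computed back as (pileup + 1) / fold − 1, scaled from the fragment length (225 bp in VCaP, 241 bp in LNCaP) to 10000 bp. They came out whole within 0.05 tags in 100% of regions above the genome mean, and 2.24% of VCaP and 0.111% of LNCaP regions were at that mean. Overlap meant at least 1 bp on chromosomes 1 to 22 and X, with the partner of highest fold taken. Intervals are exact 95% (Clopper-Pearson); that of a ratio of counts is the exact binomial one. No p-value was computed, since each group is 1 library. The functions were tested on simulated data. Python 3.11.15, pandas 2.3.3 and scipy 1.17.1 were used.

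Named were the 10 regions of highest fold in each list, the 10 shared regions whose poorer rank of both lists was best, the 5 highest unshared regions of each list, and the 5 highest and lowest fold ratios among pairs with at least 20 tags in 1 list. The regions, segments and comparisons were chosen with earlier results of these data known. Gene lists and motifs planned for hg19 were not used here.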

Additional observations from a re-analysis of the deposited data

Results flagged for a closer look

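The interval from 24.4 to 28.0 Mb around the centromere is left out of the regions, and its peaks count among all other peaks. There the VCaP list held 7 peaks and the LNCaP list 1. They are listed because 7 is above 3, the limit that a count of 0 would allow, although the LNCaP count was not 0. LNCaP over VCaP was 0.143, with an interval from 0.0032 to 1.11. That interval includes equal numbers but not the ratio of the whole lists, 2.34. It treats peaks as independent, and most of the VCaP peaks lay close together. Of these VCaP peaks 5 lay between 27731883 and 27738674 with pileups from 63 to 186 tags, and their windows held 433 to 888 tags, against a median of 65 for the VCaP regions outside. The single LNCaP peak, at 27731972-27732285, overlapped the highest of them and had a fold enrichment of 14.0 from 44 tags, against 10.9 from 186 tags in VCaP.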

How the results depend on the processing

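No paired analysis was possible because each line has 1 library and no test was run. Of 59 alternative values 19 stayed within counting error, or within 1.5 times for a count, and 40 moved. Only the median log2 ratios could change sign, and none did. With lists of equal length, the VCaP share of 43.5% was below the 52.5% of other VCaP peaks, the opposite order to the main setting. The share of VCaP and LNCaP regions overlapped was 56.5% and 30.7% with reciprocal overlap of at least 50%, 66.7% and 36.2% with summits within 200 bp, 77.7% and 34.1% with −log10 q of at least 5, 43.5% and 64.7% with lists of equal length, 88.3% and 36.8% on the short arm and 78.2% and 53.5% on the long arm. With a fold of at least 5 the VCaP share was 72.7%. Counts of regions were 287 in VCaP with −log10 q of at least 5 (ratio 2.31), 25 and 43 with a fold of at least 10, 82 and 316 with at least 20 tags (ratio 3.85), 196 and 475 on the short arm (2.42), and 294 and 426 on the long arm (1.45). Their share of the VCaP and LNCaP list was 8.01% and 2.44% with a fold of at least 10, 4.36% and 3.47% with intervals widened by 0.5 Mb, 2.09% and 2.16% on the short arm, and 3.13% and 1.94% on the long arm. It was 5.92% of VCaP with a fold of at least 5 and 4.55% of LNCaP with −log10 q of at least 5. With the latter limit 52.9% of pairs were higher in LNCaP (median log2 ratio -0.028), and with scaled pileup in place of fold 99.3% (-1.70). Narrower regions, stricter limits and arms hold fewer peaks by construction; the cause of the other shifts was not tested. The planned shares at gene starts and with an E2F motif were not run, since no hg19 genome or annotation was used. Without replicates or a control, differences between cultures and background signal cannot be told apart from the differences between the lists.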
